A study of Mus musculus with 8 samples.

Results

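The genes described here encode receptors that bind dying cells, the soluble proteins that bridge those receptors to the dying cell, and an adaptor that passes the signal on inside the phagocyte. The members were chosen by name, with earlier results of these data known. They are the TAM kinases Mertk, Axl and Tyro3, their ligands Gas6 and Pros1, and the receptors Timd4, Stab1 and Lrp1. The bridging protein Mfge8 and the adaptor Gulp1 complete the set. Of these 10 genes, 9 are among the 13786 protein-coding genes of the deposited count table, and Gulp1 was not analysed here. Every gene in the table has a median of 5 or more counts in at least 1 strain, so the 9 genes are those that passed a filter on low counts. RNA was sequenced from CD11c-positive splenocytes of untreated female mice at 7 weeks of age, 4 of the control strain C57BL/6 and 4 of B6.SLE123, a congenic line on the C57BL/6 background that carries the Sle1, Sle2 and Sle3 intervals of a lupus-prone strain. The bounds of these intervals were not used here, so whether any of the 9 genes lies within one was not tested. B6.SLE123 mice are known to develop kidney disease and hypertension at a later age. CD11c, encoded by Itgax, is carried by dendritic cells and also by some macrophages and other leukocytes, so that the preparation can hold several cell types. Strains were taken from the sample titles, since the genotype entries of the labels carry a number that goes up with each sample of a strain. The labels do not say that each sample came from a separate mouse. Each is called a mouse below, and if some shared an animal the p-values measure only the spread between samples.

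Cells that die by apoptosis expose phosphatidylserine on their surface, and phagocytes take them up in a process called efferocytosis. Some receptors, such as TIM-4 and the stabilins, bind phosphatidylserine directly, whereas MERTK, AXL and TYRO3 bind it through GAS6 or protein S, and integrins bind it through MFG-E8. In the spleen the macrophages of the red pulp and marginal zone are known for this work, and loss of MERTK, MFG-E8 or C1q is known to lead to lupus-like autoimmunity in mice.

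Counts summed to between 25563070 and 37367094 per mouse. Itgax itself averaged 1329 ± 77.9 CPM in the control strain and 1543 ± 93.4 CPM in B6.SLE123 mice (SD, n = 4 each; log2 fold change 0.22, adjusted p = 0.00942 by edgeR's quasi-likelihood test). CPM are counts per 1000000 counts after scaling of library sizes by the trimmed mean of M-values (TMM). Markers of other cell types were present in both strains, and some lists of them differed between the strains more than others. An adjusted p below 0.05 by edgeR's test was found for 0 of 6 NK cell genes and 2 of 7 T cell genes. It was found for 1 of 7 genes of type 2 conventional dendritic cells. The 10 genes of a red pulp macrophage list summed to between 10608 and 13408 CPM in C57BL/6 mice and to between 1629 and 3052 CPM in B6.SLE123 mice, and 10 of the 10 were lower in B6.SLE123 mice. None of the 10 was at 0 in either strain. The 6 genes of a marginal zone macrophage list summed to between 612.8 and 751.3 CPM and to between 145.7 and 228.1 CPM, and 6 of the 6 were lower. The 8 genes of a type 1 conventional dendritic cell list went the other way, from between 3154 and 3591 CPM to between 4796 and 6148 CPM, with 6 higher and 1 lower. Much of that sum was Wdfy4, at 1851 ± 121 CPM in C57BL/6 and 3344 ± 189 CPM in B6.SLE123 mice (SD, n = 4 each). In RNA of mixed cells, fewer cells of a type and less RNA per cell cannot be told apart.

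Most of the clearance genes were lower in B6.SLE123 mice. Mertk, Axl, Timd4, Gas6 and Lrp1 were lower by between 3.85-fold and 6.71-fold, Pros1 fell less, and Mfge8 rose. With edgeR's quasi-likelihood test fitted over the whole table and a threshold of 0.05 on the adjusted p, 6 of the 9 genes were called lower and 1 higher, and Stab1 and Tyro3 did not pass. Over all 13786 genes, 53.4% passed this threshold, 26.6% lower and 26.7% higher in B6.SLE123 mice. More than 2-fold lower expression was found for 5 of the 9, against 8.29% of all genes. For 6 of the 9 all B6.SLE123 mice lay on one side of all C57BL/6 mice, against 48.9% of all genes. Since the members were chosen with earlier results of these data known, these shares describe them and are not a test. The median log2 fold change, given as B6.SLE123 over C57BL/6 throughout, was -1.94 for the 9 genes and -0.002 for all genes. Together the 9 genes made up between 0.309% and 0.384% of all counts in a C57BL/6 mouse and between 0.0488% and 0.0953% of those in a B6.SLE123 mouse.

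**Figure D1:**
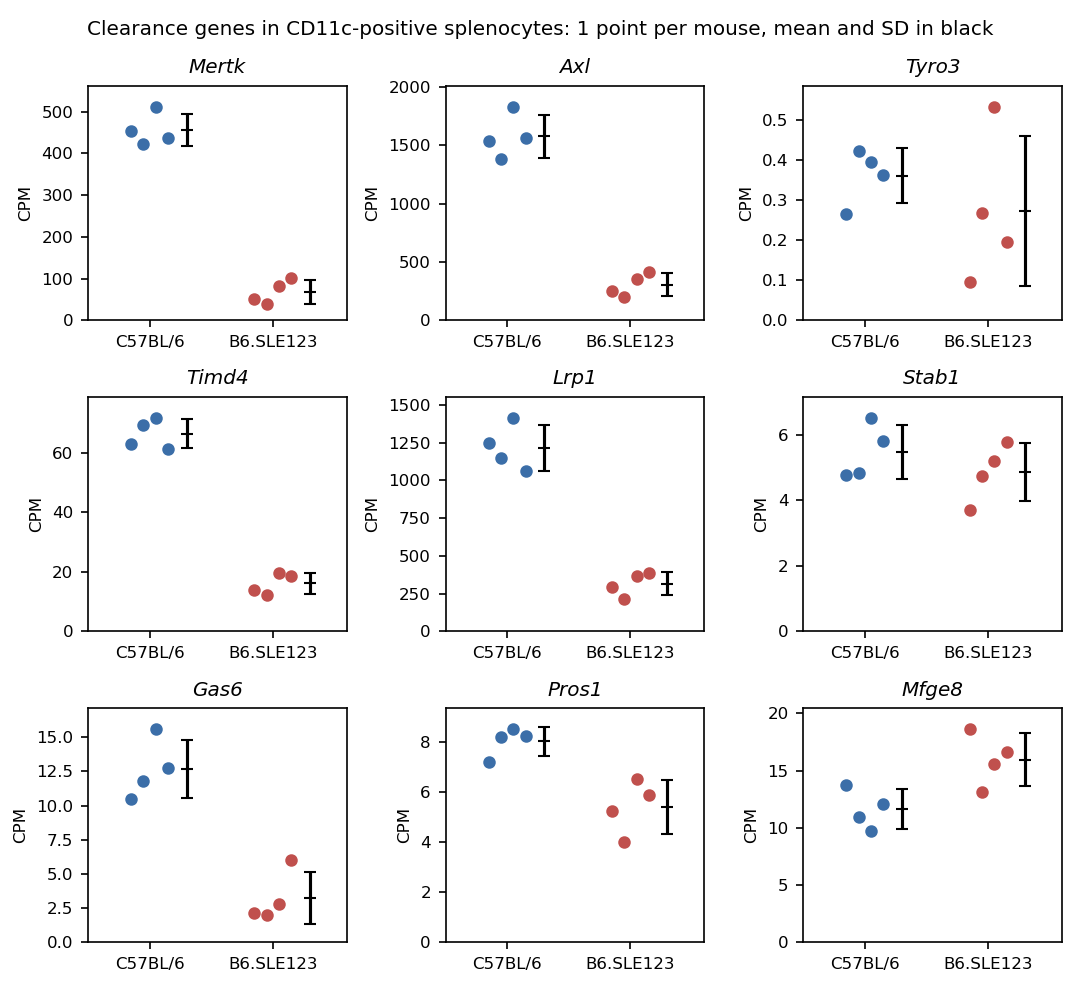
CPM (linear axes that start at 0) of the 9 genes in each mouse, with the mean and SD of the 4 mice of each strain in black. Mertk, Axl, Timd4, Lrp1, Gas6 and Pros1 do not overlap between the strains, and B6.SLE123 replicates 3 and 4 sit above replicates 1 and 2 for Mertk, Axl, Timd4, Lrp1 and Gas6.

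Mertk encodes the TAM kinase that serves macrophages most in the uptake of apoptotic cells. It lies on the plus strand of chromosome 2 in mm10, from 128698956 to 128802894. Its level was 455, 423, 511 and 437 CPM in C57BL/6 mice 1 to 4 and 51.2, 39.6, 81.6 and 101 CPM in B6.SLE123 mice 1 to 4. The lowest C57BL/6 mouse was 4.20 times as high as the highest B6.SLE123 mouse. The fitted log2 fold change was -2.75 (standard error, SE, 0.24, adjusted p = 4.86e-06 by edgeR's quasi-likelihood test), a level 6.71-fold lower with a 95% interval from 4.63-fold to 9.71-fold. Only 1.23% of all genes had a lower fitted log2 fold change. An antisense gene, Gm14011, and a small nucleolar RNA lie within Mertk. The strand setting of the read counting is not given in the sources used here, so the source of reads from such overlaps is uncertain for each gene where one is named.

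Axl encodes the TAM kinase that has GAS6 as its ligand. It lies on the minus strand of chromosome 7, from 25757273 to 25788705, and no other annotated gene overlaps it in GENCODE M21. Its level was 1534, 1382, 1824 and 1565 CPM in C57BL/6 mice 1 to 4 and 255, 198, 353 and 418 CPM in B6.SLE123 mice 1 to 4. All B6.SLE123 mice were below all C57BL/6 mice. Axl had a fitted log2 fold change of -2.37 (SE 0.20, adjusted p = 3.65e-06 by edgeR's test), which is 5.15-fold lower (95% interval 3.80 to 6.99).

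Tyro3, the TAM kinase known mainly from the nervous system, was close to the limit of detection. Its counts were 7, 11, 13 and 11 in C57BL/6 mice and 3, 10, 18 and 5 in B6.SLE123 mice, and the strains overlapped. The fit gave a log2 fold change of -0.38 (SE 0.44, adjusted p = 0.498 by edgeR's test), and its 95% interval runs from 2.55-fold lower to 1.52-fold higher, so that a difference of either sign was not detectable at this depth.

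Within the same library, Axl and Mertk did not fall by the same amount. The difference of their log2 CPM (Axl minus Mertk) was 1.79 ± 0.07 (SD, n = 4) in C57BL/6 mice and 2.20 ± 0.14 (SD, n = 4) in B6.SLE123 mice, which corresponds to 3.45 and 4.60 Axl reads for each Mertk read. The strains did not overlap in this ratio (exact two-sided permutation test, p = 0.0286, also 0.0286 after adjustment over the 4 ratios compared), and 0.0286 is the smallest p that 4 mice against 4 allow. Tyro3 rose relative to Mertk by 2.35 and relative to Axl by 1.93 on the log2 scale (exact permutation test, p = 0.0286 and 0.0286), ratios that rest on between 3 and 18 Tyro3 counts per mouse. Since Mertk and Axl fell and Tyro3 did not pass edgeR's test, these ratios do not show a rise of Tyro3.

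The promoters of the most reduced receptor, of the receptor at the highest level per length and of the gene that rose are shown. The study deals with the transcription factor PU.1, and the search was for GAGGAA, a sequence that PU.1 can bind. The PU.1 probe that the study used for the C1q promoter holds GAGGAA on neither strand, so a search for it can miss PU.1 sites. RefSeq promoters (GRCm38.p6, 250 bases before to 50 after the start) were matched for 10 of 10 members. Both strands were searched for GAGGAA, which appears as TTCCTC when it lies on the other strand, and matches are in capitals. The first sequence lies at chr2:128698665-128698964 on the plus strand, the second at chr7:25788684-25788983 and the third at chr7:79149011-79149310, both on the minus strand.
Mertk: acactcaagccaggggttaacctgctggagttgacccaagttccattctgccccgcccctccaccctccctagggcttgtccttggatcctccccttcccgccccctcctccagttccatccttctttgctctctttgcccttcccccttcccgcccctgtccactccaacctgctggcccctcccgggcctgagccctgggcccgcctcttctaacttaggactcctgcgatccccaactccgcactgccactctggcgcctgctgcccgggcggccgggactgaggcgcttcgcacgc
Axl: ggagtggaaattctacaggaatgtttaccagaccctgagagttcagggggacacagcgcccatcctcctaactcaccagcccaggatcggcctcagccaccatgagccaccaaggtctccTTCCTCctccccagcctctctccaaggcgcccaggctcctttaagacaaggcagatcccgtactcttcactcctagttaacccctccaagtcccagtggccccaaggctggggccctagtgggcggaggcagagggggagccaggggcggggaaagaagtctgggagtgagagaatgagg
Mfge8: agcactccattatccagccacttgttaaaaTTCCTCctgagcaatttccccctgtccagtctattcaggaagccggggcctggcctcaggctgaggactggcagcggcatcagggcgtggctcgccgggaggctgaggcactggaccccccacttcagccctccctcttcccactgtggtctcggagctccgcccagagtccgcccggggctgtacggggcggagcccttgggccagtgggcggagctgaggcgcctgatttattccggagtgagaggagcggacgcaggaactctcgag

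The letters GAGGAA were found in 3 of the 10 promoters, and in 28.3% of all 32851 promoters of the same length. The 3 were Axl, with its match 130 bases before the start, Mfge8 at 220 bases and Stab1 at 30 bases. Of these, 1 fell, 1 rose and 1 did not pass the test, and Mertk, with the largest fall, held no match in its 300 bases. A missing match does not show that PU.1 does not bind, and binding was not tested.

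Gas6 and Pros1 encode the bridging ligands of the TAM kinases, GAS6 and protein S, whose Gla domains bind phosphatidylserine once vitamin K-dependent carboxylation has taken place. Gas6 (chromosome 8, 13465374 to 13494490, minus strand) was at 10.5, 11.8, 15.6 and 12.8 CPM in C57BL/6 mice and at 2.18, 2.02, 2.78 and 6.06 CPM in B6.SLE123 mice. The strains did not overlap, and B6.SLE123 mouse 4 stood above the other mice of its strain. Gas6 had a log2 fold change of -2.003 (SE 0.29, adjusted p = 0.000170 by edgeR's test), a 4.01-fold lower level (95% interval 2.58 to 6.23). Tmem255b overlaps Gas6 on the other strand and was not used here.

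Pros1 (chromosome 16, 62854307 to 62929346, plus strand) changed less. It was at 7.19, 8.21, 8.51 and 8.24 CPM in C57BL/6 mice and at 5.25, 4.005, 6.51 and 5.90 CPM in B6.SLE123 mice, which did not overlap. For Pros1 the log2 fold change came to -0.58 (SE 0.14, adjusted p = 0.00506 by edgeR's test), a 1.49-fold lower level (95% interval 1.20 to 1.84).

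The ratio of ligand reads differed between the strains. In every C57BL/6 mouse Gas6 had more reads than Pros1, with a difference of log2 CPM (Pros1 minus Gas6) of -0.64 ± 0.16 (SD, n = 4). In B6.SLE123 mice it was 0.84 ± 0.60 (SD, n = 4), with Pros1 above Gas6 in mice 1 to 3 and the ligands level in mouse 4, at -0.04. The strains did not overlap (exact two-sided permutation test, p = 0.0286, also 0.0286 after adjustment over the 4 ratios). Endothelial and stromal cells and platelets also make these ligands. The 7 genes of the endothelial and stromal list in the table summed to between 20.7 and 57.9 CPM in C57BL/6 mice and between 21.5 and 31.3 CPM in B6.SLE123 mice, with 4 lower and 2 higher, and the 57.9 CPM came from C57BL/6 mouse 2. The 4 genes of the platelet list in the table summed to between 30.8 and 37.7 CPM and between 23.7 and 31.9 CPM, most of it Itgb3, while Ppbp was at 0.231 ± 0.0596 and 0.237 ± 0.123 CPM (SD, n = 4). Their part in the ligand values was not tested.

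**Figure D2:**
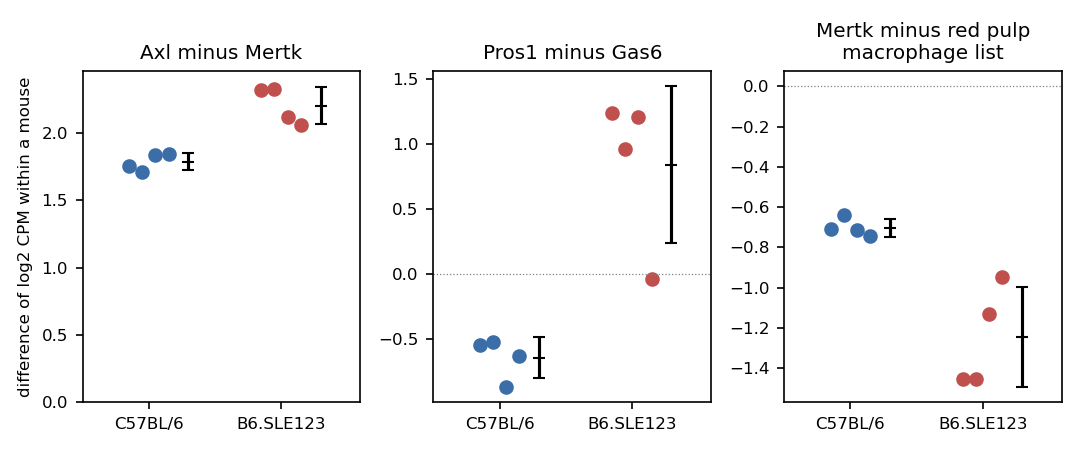
Differences of log2 CPM between genes of the same mouse (y axes, 1 point per mouse, mean and SD in black; the dotted line marks equal values). Axl minus Mertk and Pros1 minus Gas6 were higher in all B6.SLE123 mice than in all C57BL/6 mice, and Mertk minus the mean of the red pulp macrophage list was lower.

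Timd4 encodes TIM-4, which tethers phosphatidylserine directly. It lies on the plus strand of chromosome 11, from 46810800 to 46844332, with no overlapping gene. It was at 63.0, 69.4, 71.5 and 61.4 CPM in C57BL/6 mice and at 13.8, 12.4, 19.6 and 18.6 CPM in B6.SLE123 mice. The strains lay far apart, the lowest C57BL/6 value being 3.13 times the highest B6.SLE123 value. Timd4 had a log2 fold change of -2.05 (SE 0.13, adjusted p = 6.78e-07 by edgeR's test), the smallest standard error among the genes that fell and a 4.14-fold lower level (95% interval 3.39 to 5.05).

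Lrp1 encodes the large endocytic receptor of the LDL receptor family that takes up particles coated with calreticulin and C1q and works with the adaptor GULP. It lies on the minus strand of chromosome 10, from 127538161 to 127621148, and the antisense gene Gm16217 lies within it. Its level was 1245, 1145, 1411 and 1062 CPM in C57BL/6 mice and 294, 216, 368 and 387 CPM in B6.SLE123 mice. The groups did not overlap. Lrp1 had a log2 fold change of -1.94 (SE 0.16, adjusted p = 3.45e-06 by edgeR's test), a 3.85-fold lower level (95% interval 3.001 to 4.94).

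Stab1 encodes stabilin-1, a scavenger receptor that also binds phosphatidylserine. It lies on chromosome 14, from 31139013 to 31168641 on the minus strand, and overlaps Nt5dc2 on the other strand, whose log2 fold change was -0.24 (adjusted p = 0.175 by edgeR's test). It was at 4.77, 4.84, 6.50 and 5.79 CPM in C57BL/6 mice and at 3.70, 4.73, 5.21 and 5.79 CPM in B6.SLE123 mice. The mice of the strains were intermixed. Stab1 had a log2 fold change of -0.18 (SE 0.15, adjusted p = 0.343 by edgeR's test), with a 95% interval from 1.44-fold lower to 1.12-fold higher. Its relative Stab2, the stabilin-2 gene, was at 207 ± 17.9 CPM and 35.9 ± 10.6 CPM (SD, n = 4) and had a log2 fold change of -2.53 (adjusted p = 1.08e-06 by edgeR's test).

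Mfge8 encodes MFG-E8 or lactadherin, which bridges phosphatidylserine to integrins of the alpha v family. It lies on the minus strand of chromosome 7, from 79133768 to 79149060. It was at 13.8, 10.9, 9.70 and 12.1 CPM in C57BL/6 mice and at 18.6, 13.1, 15.5 and 16.6 CPM in B6.SLE123 mice. B6.SLE123 mouse 2 was below C57BL/6 mouse 1, and the other values did not cross. Mfge8 had a log2 fold change of 0.46 (SE 0.13, adjusted p = 0.0102 by edgeR's test), a 1.37-fold higher level (95% interval 1.13 to 1.66), while the exact two-sided permutation test of its log2 CPM gave p = 0.0571. Among the integrin chains known to bind MFG-E8, Itgav and Itgb5 were lower. By edgeR's test the log2 fold change was -0.48 for Itgav (adjusted p = 4.56e-05), -2.22 for Itgb5 (adjusted p = 5.87e-06) and -0.29 for Itgb3 (adjusted p = 0.0448), the last with values that overlapped between the strains. The call of Itgb3 was lost under 6 of 14 other settings, upper quartile scaling among them (adjusted p = 0.0570 by edgeR's test).

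**Figure D3:**
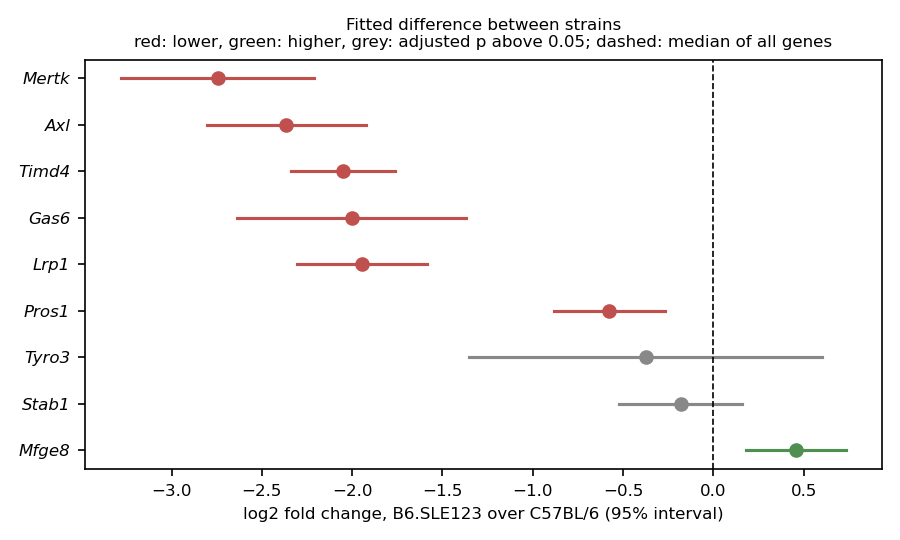
Fitted log2 fold change of the 9 genes, B6.SLE123 over C57BL/6, with 95% intervals (x axis), in order of size; the dashed line is the median of all genes, -0.002. The intervals of Mertk, Axl, Timd4, Gas6 and Lrp1 lie wholly below -1, those of Tyro3 and Stab1 include 0, and that of Mfge8 lies above 0.

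Counts per kilobase of exon allow the levels of different genes to be compared. In C57BL/6 mice the order of the mean levels was Axl (313 ± 36.5 CPM per kilobase, SD, n = 4), Mertk (105 ± 8.88), Lrp1 (68.6 ± 8.48), Timd4 (30.5 ± 2.26), Gas6 (4.97 ± 0.843), Mfge8 (2.48 ± 0.370), Pros1 (1.97 ± 0.142), Stab1 (0.532 ± 0.0804) and Tyro3 (0.0584 ± 0.0111). Of the neighbours in this order, only Mfge8 and Pros1 overlapped between mice. In B6.SLE123 mice Axl was again first, at 60.8 ± 19.6 CPM per kilobase, followed by Lrp1 (17.8 ± 4.39), Mertk (15.7 ± 6.44), Timd4 (7.41 ± 1.63), Mfge8 (3.40 ± 0.490), Pros1 (1.33 ± 0.263), Gas6 (1.28 ± 0.744), Stab1 (0.472 ± 0.0858) and Tyro3 (0.0441 ± 0.0302). There Lrp1 and Mertk overlapped, as did Pros1 and Gas6. Mfge8 thus stood below Gas6 in all C57BL/6 mice and above it in all B6.SLE123 mice on this scale.

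Ordered by the summed level of the red pulp macrophage list, from low to high, the B6.SLE123 mice stood as 2, 1, 3 and 4. Mertk, Axl, Lrp1 and Gas6 gave the same order. Timd4 and Pros1, which also fell, stood as 2, 1, 4 and 3, and Stab1, Mfge8 and Tyro3 did not give the order of the list. The C57BL/6 mice stood as 2, 4, 1 and 3 by the list, an order that Mertk shared and Axl (2, 1, 4, 3), Lrp1 (4, 2, 1, 3) and Gas6 (1, 2, 4, 3) did not. Each gene was also set against the mean log2 CPM of the 10 list genes in the same mouse. Relative to the list, Mertk was again lower in B6.SLE123 mice, with a log2 difference (B6.SLE123 minus C57BL/6) of -0.544. No mouse of one strain reached the other (exact two-sided permutation test, p = 0.0286, and 0.0429 after adjustment over the 9 genes). Axl (-0.129, p = 0.114), Timd4 (0.225, p = 0.0857) and Gas6 (0.219, p = 0.543) did not pass the exact permutation test in this comparison. Lrp1 (0.316), Pros1 (1.70), Tyro3 (1.81), Stab1 (2.11) and Mfge8 (2.74) were higher relative to the list, each with p = 0.0286 by the exact permutation test and 0.0429 after adjustment. Since all 10 list genes fell, a gene that fell less or not at all comes out higher relative to the list. These p-values do not show a rise of the gene itself, and Tyro3 and Stab1 did not pass edgeR's test. Against only the 4 defining genes Spic, Vcam1, Slc40a1 and Hmox1, an alternative chosen after the data were seen, Mertk was lower by 0.19 and Axl higher by 0.22 on the log2 scale, and each of the 9 genes gave p = 0.0286 in the exact permutation test. The 10 list genes themselves had fitted log2 fold changes from -2.73 to -1.05 (median -2.42), against -2.75 for Mertk. How far Mertk lies below the list therefore depends on which genes the list holds. The part of macrophages in the difference between the strains was not tested.

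The genes most like each member over the 8 mice were found by the root mean square difference of centred log2 CPM. The search covered 11286 genes with a mean of at least 50 counts. Values were centred on the mean of all 8 mice, so genes with a strain difference of like size come out close. Likeness within a strain was not tested. Mertk was closest to Slc40a1, which encodes the iron exporter ferroportin (root mean square difference 0.0573 on the log2 scale), which went from 2260 ± 197 CPM in the control strain to 352 ± 140 CPM in B6.SLE123 mice (SD, n = 4 each). Lrp1 was closest to Selenop, which encodes the selenium carrier selenoprotein P (0.0362), and then to Cmklr1, the chemerin receptor gene (0.0649). Axl was closest to Glis3 (0.0424), Timd4 to Myo10, an unconventional myosin gene (0.0864), and Pros1 to Maml3 (0.0781). Gas6 had no gene closer than Hbegf, at 0.232. Mfge8 was closest to Plvap, a gene of fenestrated endothelium, at 0.0871. Among the members themselves the closest pair was Timd4 and Lrp1 (0.124), followed by Mertk and Axl (0.227).

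Other genes of apoptotic cell clearance were described from 7 lists. The table holds 82 of the 87 genes listed. Of the 82, 43 passed the same threshold as lower and 14 as higher in B6.SLE123 mice, or 69.5% against the 53.4% of all genes. The lists were chosen with earlier results of these data known, so these shares describe them and are not a test. The median log2 fold change of the 82 genes was -0.21. By list, the share called in either direction ran from 50% for phagosome digestion to 84.6% for receptors and tethers.

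**Figure D4:**
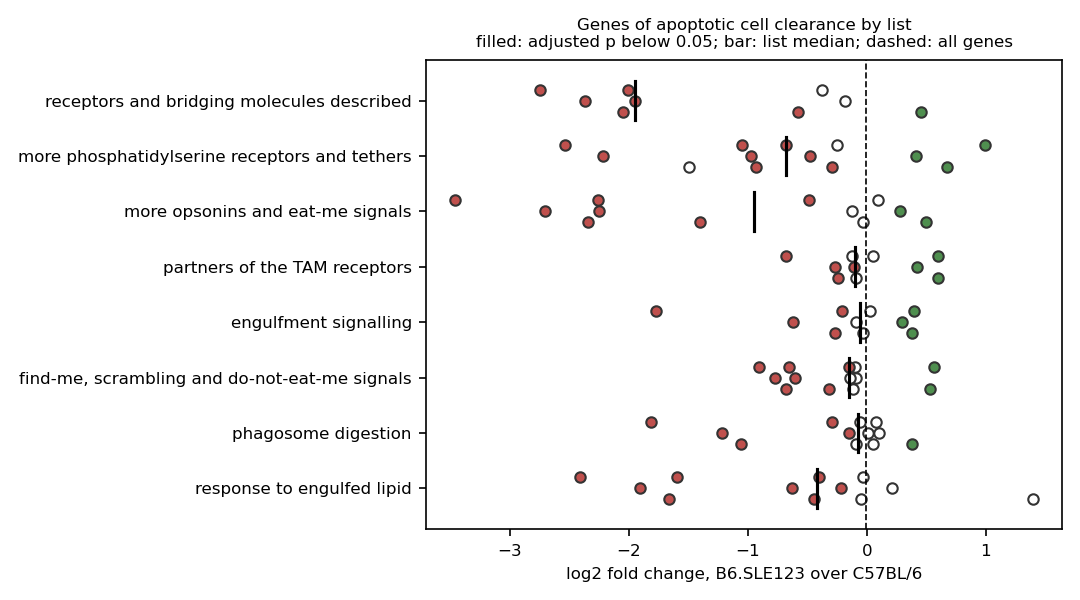
Log2 fold change, B6.SLE123 over C57BL/6 (x axis), of the 9 genes and of 7 lists of other clearance genes; each point is 1 gene, red (lower) or green (higher) where the adjusted p is below 0.05 and open otherwise, and the bars are list medians. The falls of more than 2-fold lie among receptors, opsonins, digestion and lipid response genes, with 1 gene of engulfment signalling. That gene, Bcar1, averaged 0.604 CPM in C57BL/6 and 0.182 CPM in B6.SLE123 mice. Among the opsonins, Ptx3 averaged 0.286 and 0.0202 CPM, and Thbs1 lost its call under 6 of 14 other settings.

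Among 13 further receptors and tethers, 8 were lower and 3 higher (median -0.68). Cd36, which encodes a thrombospondin and lipid scavenger receptor, rose from 76.3 ± 9.17 to 152 ± 23.2 CPM (SD, n = 4; log2 fold change 0.99, adjusted p = 2.60e-05 by edgeR's test), and the largest fall was that of Stab2. Among 12 opsonins and eat-me signals, 7 were lower and 2 higher (median -0.95). Only 5 of these 7 were called lower without C57BL/6 replicate 2 or 3 or without B6.SLE123 replicate 1 or 4. Of the 2 higher genes, 1 was called without C57BL/6 replicate 1 or 4 or without B6.SLE123 replicate 1 or 2. The lower genes include C1qa, C1qb and C1qc, the chains of C1q, with log2 fold changes of -2.26, -2.25 and -2.35 (adjusted p = 7.64e-06, 4.42e-06 and 4.72e-06 by edgeR's test). Fcna, which encodes the lectin ficolin A, fell from 634 ± 110 to 97.2 ± 32.3 CPM (SD, n = 4), and Anxa1, which encodes annexin A1, rose from 38.9 ± 1.91 to 54.8 ± 4.58 CPM (SD, n = 4).

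The 10 partners of the TAM kinases changed little in size, with 4 lower and 3 higher and none by more than 2-fold. Vkorc1, the vitamin K epoxide reductase gene, had the largest fall (-0.68, adjusted p = 0.0295 by edgeR's test, strains overlapping, call lost under 5 of 14 other settings), and Socs3, a feedback inhibitor of cytokine signalling, the largest rise (0.60, adjusted p = 0.000895). The 4 lower calls of this list were not stable. Only 1 of them remained without C57BL/6 replicate 3 or without B6.SLE123 replicate 1. Without C57BL/6 replicate 1 or 4 or without B6.SLE123 replicate 2, 2 of them remained. Engulfment signalling genes were split, 4 lower and 3 higher of 10. Elmo1, whose product works with DOCK proteins to activate Rac, rose from 254 ± 15.3 to 335 ± 10.7 CPM (SD, n = 4), and Dock1 fell from 15.9 ± 1.06 to 10.4 ± 1.84 CPM (SD, n = 4).

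Of 13 find-me, scrambling and do-not-eat-me genes, 7 were lower and 2 higher (median -0.15). Sirpa, the CD47 receptor, which dendritic cells also carry, fell from 1784 ± 85.4 to 950 ± 101 CPM (SD, n = 4), and P2ry6, which senses nucleotides, rose by 0.57 on the log2 scale (adjusted p = 4.45e-06 by edgeR's test). Of 12 phagosome digestion genes, 5 were lower and 1 higher (median -0.07). That is 50% called, near the 53.4% of all genes. Ctsl, the cathepsin L gene, fell from 80.6 ± 7.49 to 23.0 ± 3.74 CPM (SD, n = 4), and Uvrag, an autophagy gene, rose by 0.38 on the log2 scale (adjusted p = 9.16e-05 by edgeR's test). Of 12 genes of the response to engulfed lipid, 8 were lower and 0 higher by edgeR's test (median -0.42). Il10 and Slc2a1, the genes of the cytokine IL-10 and a glucose transporter, were higher at an unadjusted p of 0.0293 and 0.0380 but had an adjusted p of 0.0541 and 0.0674, and each passed under some other settings, Il10 with DESeq2. Nr1h3, which encodes the oxysterol receptor LXR alpha and also stands in the marginal zone macrophage list, fell most, from 172 ± 20.6 to 32.3 ± 8.81 CPM (SD, n = 4).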

How the data were processed

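CD11c-positive splenocytes of 4 C57BL/6 and 4 B6.SLE123 mice were compared. The authors prepared stranded libraries, removed adapters with cutadapt, used STAR for alignment to mm10 and featureCounts for counting, and deposited raw counts per gene. Versions and the strand setting are not given in the sources used here. The authors' DESeq2 comparison in the table (fold changes and p-values) was not used. Coordinates are mm10, and those of the 9 genes equal GENCODE M21, whose merged exons gave the lengths.

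The strains were compared by the quasi-likelihood test of edgeR 4.0.16 in R 4.3.3, with TMM factors. No filter was applied, and p-values were adjusted over all 13786 genes by the Benjamini-Hochberg method. Standard errors are the log2 fold change divided by the root of F. Log2 CPM use a prior count of 2. Libraries of a strain were checked for duplicates by a chi-square test of their counts (4.96 to 18.9 per degree of freedom), and none were duplicates, which does not show that they came from separate animals. In simulated data with 200 of 13786 genes changed, 76.1% of 1.5-fold, 85.1% of 2-fold and 93.9% of 4-fold changes were recovered, and 8 of 178 calls were false. In the data 53.4% of genes were called, far more than were changed in the simulation, so these rates need not hold there. With 25563070 or more counts per mouse, genes near 10 counts, such as Tyro3, carry wide intervals.

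The members and gene lists were chosen with earlier results of these data known. Named genes were the members, C1qa, C1qb and C1qc, the largest called rise and fall of each pathway list with 50 or more mean counts in the higher strain, and the 3 genes most like each called member, of which the closest are given. Itgax, Spic, Vcam1, Slc40a1, Hmox1, Ppbp and the integrin genes Itgav, Itgb3 and Itgb5 are named as markers or partners outside this rule, the integrins, Il10 and Slc2a1 after their values were seen. Wdfy4, Bcar1, Ptx3 and Thbs1 are also named outside it, after their values were seen. Of the marker lists, those for monocytes, type 2 conventional dendritic cells, plasmacytoid dendritic cells, B cells, T cells, NK cells, neutrophils and erythroid cells had median log2 fold changes of -0.58, -0.17, 0.11, -0.61, -0.32, -0.19, -0.63 and -2.78. Alternatives were other scaling factors, a filter of 10 counts in every sample, DESeq2 1.42.0, limma-voom (limma 3.58.1), a replicate block, a prior count of 0.5, a shorter macrophage list and each mouse left out.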

Additional observations from a re-analysis of the deposited data

Results flagged for a closer look

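In 2 of 46 groups of 4 mice, 1 mouse lay apart from the other 3, where chance gives about 1 in 20 groups, or 2.3 of 46. Pros1 minus the red pulp macrophage list was -5.03 in B6.SLE123 replicate 4, against -4.76 to -4.72 in the other mice of that strain. Timd4 minus the same list was -3.25 in C57BL/6 replicate 2, against -3.58 to -3.55 in the others.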

How the results depend on the processing

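The 125 alternative values of the 9 fold changes did not change direction or cross the threshold, and their size was not part of this check. The log2 fold change of Stab1, for example, was between -0.281 and -0.0765 without each mouse in turn. The 42 alternative counts did not differ from the main counts by over 1.5 times. The number of the 9 genes called was 7 under each of these 14 settings, but Tyro3 could not be fitted with the filter of 10 counts in every sample, which removes it. With the replicate block, 7183 genes and 7 of the 9 passed, against 7356 and 7. The sources used here do not say whether mice that share a number were handled as a pair. The correlation of their deviations across 11297 genes was 0.0586, 0.225, 0.0692 and 0.140 for numbers 1 to 4. For mice of different numbers it ran from -0.188 to 0.0995. Not every mouse correlated best with its own number.

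Against the 4 defining red pulp genes in place of 10, the differences were -0.192 for Mertk, 0.223 for Axl, 0.571 for Gas6, 2.06 for Pros1, 0.577 for Timd4, 3.09 for Mfge8, 2.46 for Stab1 and 0.668 for Lrp1; the shorter list fell more in B6.SLE123 mice. Axl minus Mertk was between 0.374 and 0.464 and Pros1 minus Gas6 between 1.35 and 1.78 without each mouse in turn. With 3 mice against 4 the exact test cannot go below 0.0571, so these are given as values without a test. Mfge8 stayed called without each mouse, with adjusted p between 0.00330 and 0.0321 by edgeR's test. The log2 fold change of Mertk was between -3.00 and -2.56 and that of Gas6 between -2.46 and -1.83 in these fits, and both were lowest without B6.SLE123 replicate 4. Without that mouse Gas6 minus the red pulp list was -0.00455, against 0.219 with it. Depth limits Tyro3, whose log2 fold change was between -0.920 and -0.0994 without each mouse in turn.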

Other observations

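The genes that fell varied more between B6.SLE123 mice than between C57BL/6 mice. The coefficient of variation of CPM was 40.9% against 8.44% for Mertk, 32.2% against 11.6% for Axl, 58.2% against 16.9% for Gas6, 24.6% against 12.4% for Lrp1, 22.1% against 7.39% for Timd4 and 19.8% against 7.23% for Pros1, with 4 mice in each strain. For Mfge8, the gene that rose, it was 14.4% against 14.9%. For Tyro3 and Stab1, which did not pass, it was 68.4% against 19.0% and 18.2% against 15.1%. The larger spread was thus not limited to genes that fell. Whole libraries also stood further apart in B6.SLE123 mice, with chi-square values of 10.6 to 18.9 per degree of freedom against 4.96 to 11.7. The difference in variation was not tested. The highest B6.SLE123 mouse was at 2.54 times the lowest for Mertk, 2.11 times for Axl and 3.01 times for Gas6, compared with 1.21, 1.32 and 1.48 times in C57BL/6 mice.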
